A study of Mus musculus with 20 samples.

Results

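The comparison described here sets neural stem cells with a recombined Yap1 gene (KO) against wild-type cells (WT), both from the spinal cord of adult mice and collected after 5 days of differentiation. It rests on 4 libraries, KO numbers 7 and 8 and WT numbers 7 and 8, out of 20 labelled samples, of which 8 were analysed. The 4 libraries were chosen by their labels alone, and every gene of the table was considered. In the KO group, exon 3 of Yap1 could be removed by Cre recombinase, which an adenovirus delivered under the CMV promoter, a promoter that is active in most cell types. Cells of both groups were grown as neurospheres and kept in DMEM-F12 with N2 and B27 supplements, and the 4 libraries of the proliferation groups (KO and WT, 7 days with EGF, FGF2 and heparin) served to estimate the spread. The labels do not state whether WT cells received a virus or carried the floxed allele, so neither can be told apart from the loss of the gene. What numbers 7 and 8 stand for (cultures, animals or runs) is not stated, and p-values cover the spread between libraries only, which may be technical.

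YAP1 is a transcriptional coactivator at the end of the Hippo pathway. When the kinases of the pathway (MST and LATS) are active, they phosphorylate YAP1 and its paralog TAZ, the product of Wwtr1, which then stay in the cytoplasm or are degraded. When the kinases are inactive, as in stretched or spread cells, both enter the nucleus and bind TEAD factors, which recognise short DNA motifs such as GGAATG. Ependymal cells line the central canal of the spinal cord, carry motile cilia and are a main source of the stem cells that form neurospheres, and on withdrawal of growth factors such cells give rise mostly to astrocytes, with some oligodendrocytes and few neurons.

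The 4 differentiation libraries held 18204299 to 18538656 counts, so depth was nearly equal. Levels per length, in the authors' TPM, were those of glial cultures. Slc1a3, an astrocyte glutamate transporter, had 1164 and 711 TPM in KO libraries and 1204 and 764 TPM in WT libraries (numbers 7 and 8), and Sox2, a stem and glial cell factor, had 515 and 465 TPM in KO and 600.0 and 538 TPM in WT. The proliferation marker Mki67 was at 0.06 and 0.15 TPM in KO and 0.23 and 0.40 TPM in WT, against 126 and 117 TPM in KO and 108 and 138 TPM in WT during proliferation. Ptprc, a gene of all leukocytes, had 0 counts in each of the 4 libraries, and Pecam1, an endothelial gene, had 5 counts over all 4.

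Yap1 itself (GRCm38 chr9:7931999-8009565) was lower in both KO libraries. It had 22.6 and 27.8 CPM in KO and 107 and 93.7 CPM in WT (numbers 7 and 8), where CPM are counts scaled to the TMM-adjusted library size. The KO mean was 25.1% of the WT mean, and the groups did not overlap. The log2 fold change was -1.99 ± 0.15 (SE, n = 2 each) with an adjusted p of 0.0172 in edgeR's quasi-likelihood test with the number as a block. The counts cover the whole gene and do not show exon 3 by itself, so the remaining counts cannot be split into recombined transcripts and cells that kept the exon. The exon that Cre removes is shown because it defines the model. In transcript Yap1-202 it is exon 3 of 8, on the minus strand at chr9:7973796-7973911 (GRCm38, GENCODE), coding throughout, and its 116 bases are not a multiple of 3.
Yap1 exon 3: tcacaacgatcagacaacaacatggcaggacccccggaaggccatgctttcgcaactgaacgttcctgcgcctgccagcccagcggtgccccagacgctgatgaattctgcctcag

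Across all genes, few differences passed. Of 13046 tested genes, 3 fell at an adjusted p under 0.05 (0.023%) and 0 rose (0%), in edgeR's quasi-likelihood test with number 7 or 8 as an additive block over all 8 libraries. At an unadjusted p under 0.05, 561 genes were higher (4.3%) and 813 were lower (6.23%). The count depends on how the block is set. With a separate number term for each culture condition, edgeR called 45 genes higher (0.345%) and 188 lower (1.44%), 233 in all (1.79%), among them all 3 of the additive fit. With no block it called 0 in either direction. Genes that passed in edgeR only with the separate number terms are given below with that adjusted p. DESeq2 with the additive block called 22 higher (0.169%) and 124 lower (0.95%), and 127 of the 233 genes were among its calls.

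The 3 genes that fell were Yap1, Cd109 and Foxj1. Cd109 (chr9:78615546-78716260) encodes a membrane-anchored co-receptor that dampens TGF-beta signalling. It had 120 and 164 CPM in KO libraries, against 287 and 360 CPM in WT libraries. Both KO libraries lay below both WT libraries, at 43.9% of the WT mean (log2 fold change -1.20 ± 0.11 SE, edgeR adjusted p = 0.0242). Foxj1 (chr11:116330704-116335499) encodes the transcription factor that switches on the genes of motile cilia and marks ependymal cells in the adult cord. It had 17.6 and 28.5 CPM in KO and 51.3 and 63.3 CPM in WT, again without overlap, at 40.2% of the WT mean (log2 fold change -1.35 ± 0.14 SE, edgeR adjusted p = 0.0429). No call outlasted the omission of a single library, whichever it was (KO 7, KO 8, WT 7 or WT 8). The edgeR adjusted p then ran from 0.0912 to 0.349 for Yap1, from 0.102 to 0.349 for Cd109 and from 0.0971 to 0.375 for Foxj1. The log2 fold changes stayed between -2.17 and -1.83, between -1.27 and -1.12 and between -1.53 and -1.16 in the same order of genes.

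**Figure D1:**
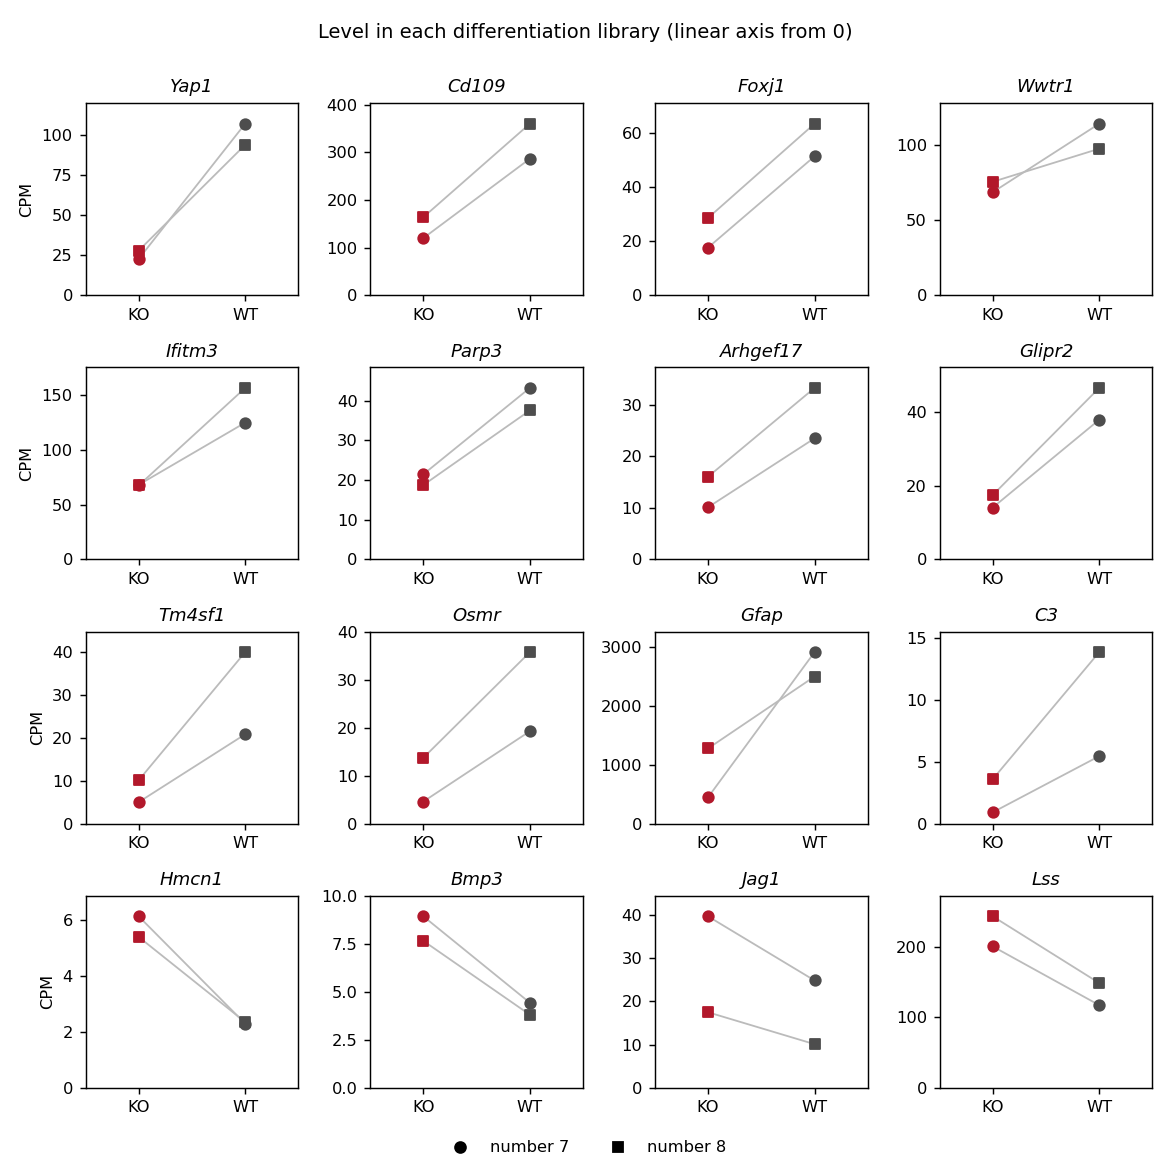
Level of 16 genes in each differentiation library, in CPM on linear axes from 0, KO left and WT right; lines join libraries of the same number. KO points lie below WT points in both numbers for the first 12 genes, such as Yap1 at 22.6 and 27.8 CPM in KO and 107 and 93.7 CPM in WT, and above them for the last 4.

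Below the threshold of the additive fit stood a group of genes with small spread. Ifitm3, an interferon-induced protein that hinders virus entry, had 68.0 and 67.4 CPM in KO and 125 and 156 CPM in WT (log2 fold change -1.04 ± 0.11 SE, edgeR adjusted p = 0.0520, and 0.00696 with separate number terms). Its neighbour and close paralog Ifitm2 had 70.7 and 60.8 CPM in KO and 128 and 88.3 CPM in WT (adjusted p = 0.138, and 0.0197 with separate terms), and reads of such similar copies may be shared. Neither gene overlapped between groups. Parp3, an ADP-ribosyltransferase of DNA break repair, had 21.5 and 18.7 CPM in KO and 43.2 and 37.5 CPM in WT (adjusted p = 0.0666, separate terms 0.00899). Glipr2, a Golgi-associated regulator of autophagy, had 14.1 and 17.5 CPM in KO and 37.9 and 46.5 CPM in WT (adjusted p = 0.0771, separate terms 0.00546). The means of these 4 genes in KO were 37.3% to 60.7% of WT.

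Exchange factors that switch on small GTPases were in this group as well. Arhgef17 had 10.1 and 16.1 CPM in KO and 23.5 and 33.3 CPM in WT (edgeR adjusted p = 0.0666, separate terms 0.00899). Net1 had 3.19 and 3.69 CPM in KO and 6.40 and 7.62 CPM in WT (adjusted p = 0.138, separate terms 0.0220). Tspan4, a tetraspanin of migrating cells, had 10.98 and 10.5 CPM in KO and 21.9 and 21.1 CPM in WT (adjusted p = 0.138, separate terms 0.0101). In all of these the KO libraries were the low ones.

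No gene passed as higher in the additive fit, and the 10 of smallest p without overlap between groups were Hmcn1, Bmp3, Elfn1, Rpl29, Yars, Sox5, Rpl31, Leo1, Atf4 and Ddt. Hmcn1, an extracellular protein of cell and basement membrane contacts, had 6.15 and 5.41 CPM in KO and 2.30 and 2.36 CPM in WT (log2 fold change 1.30 ± 0.20 SE, edgeR adjusted p = 0.138, separate terms 0.0104). Bmp3, a secreted antagonist of other bone morphogenetic proteins, had 8.93 and 7.66 CPM in KO and 4.43 and 3.81 CPM in WT (log2 fold change 1.01 ± 0.17 SE, adjusted p = 0.138, separate terms 0.0254). Both genes were expressed at low levels. The other 8 had log2 fold changes of 0.49 to 0.62 and adjusted p from 0.168 to 0.181, and each passed with separate terms. They span the ribosome (Rpl29, Rpl31, whose reads can be shared with pseudogenes), tyrosyl-tRNA synthesis (Yars), the integrated stress response (Atf4), transcript elongation (Leo1), a glial SOX factor (Sox5) and a postsynaptic adhesion protein (Elfn1). Jag1, a Notch ligand, had a smaller p but overlapping groups, with 39.6 and 17.5 CPM in KO and 24.8 and 10.1 CPM in WT. It was higher within each number (log2 fold change 0.73 ± 0.11 SE, adjusted p = 0.138, separate terms 0.0225).

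The differences of the 2 numbers were weakly correlated across genes. Across the 13046 genes, the KO minus WT differences in log2 CPM of number 7 and of number 8 had a Pearson r of 0.288 (Spearman's rho 0.260), a description across genes, which are not independent replicates. The differences had the same sign in 7700 genes (59.0%), and their SD over genes was 0.496 in number 7 and 0.366 in number 8. Differences beyond 1 log2 unit in both numbers and of 1 sign were found in 101 genes, 89 of them lower in KO and 12 higher. Libraries of the 2 groups did not overlap for 2034 lower genes (15.6%) and 2075 higher genes (15.9%), so absence of overlap by itself was common.

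**Figure D2:**
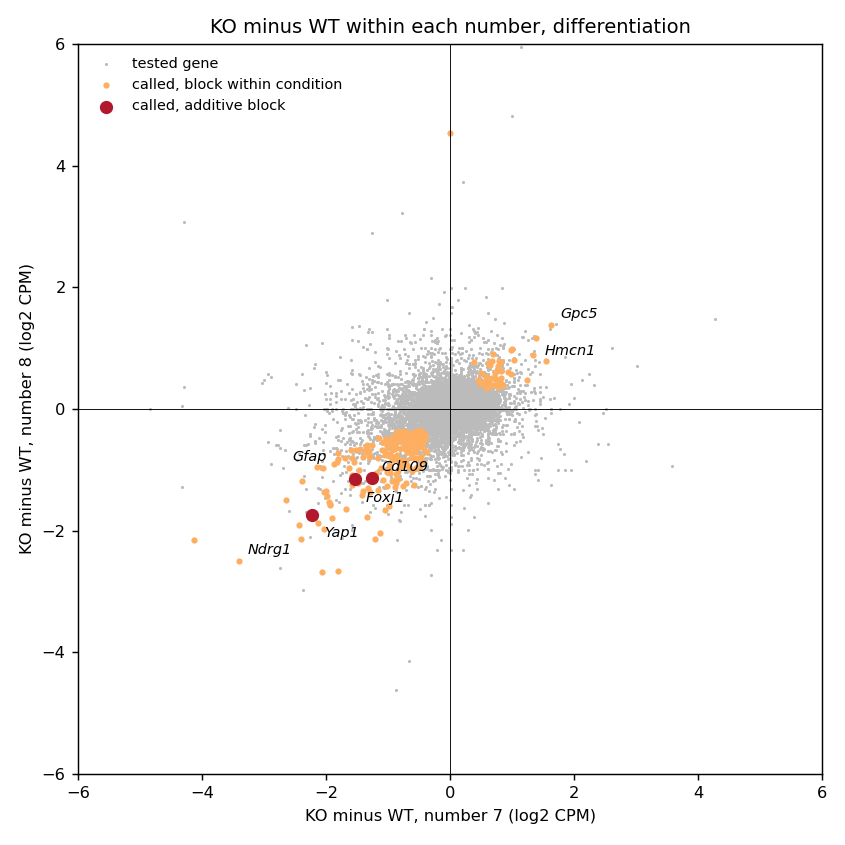
KO minus WT difference in log2 CPM within number 7 (horizontal) and within number 8 (vertical) for each of 13046 tested genes in differentiation. Red points are the 3 genes called with the additive block, orange points the 233 called with separate number terms, which lie in the lower left and upper right but for 1 gene that is at 0 in number 7; the grey cloud is nearly round (r = 0.288).

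Among genes that passed in edgeR only with separate number terms, those with the largest differences lay mostly at low to middle levels. They were singled out after their values were seen. Tm4sf1, a surface protein of spreading cells, had 5.01 and 10.1 CPM in KO and 20.8 and 39.95 CPM in WT, a wide gap in each number (log2 fold change -1.999 ± 0.31 SE, edgeR adjusted p = 0.138, separate terms 0.00194). Osmr, the receptor chain for oncostatin M, had 4.61 and 13.8 CPM in KO and 19.3 and 35.8 CPM in WT (adjusted p = 0.213, separate terms 0.00899). Il1r1, the interleukin-1 receptor, had 7.00 and 7.87 CPM in KO and 20.8 and 17.001 CPM in WT (adjusted p = 0.156, separate terms 0.0238). All 3 encode proteins of the cell surface, and none overlapped between groups.

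Secreted and matrix proteins also passed only with these terms in edgeR, Timp2 with a smaller difference. Adamtsl4, which binds fibrillin, had 2.62 and 2.68 CPM in KO and 8.64 and 8.63 CPM in WT (edgeR adjusted p = 0.138, separate terms 0.0233). Aebp1, a collagen-binding matrix protein, had 17.1 and 26.9 CPM in KO and 35.7 and 84.9 CPM in WT (adjusted p = 0.156, separate terms 0.00696). Timp2, an inhibitor of matrix metalloproteinases, had 267 and 286 CPM in KO and 503 and 495 CPM in WT (log2 fold change -0.85, adjusted p = 0.138, separate terms 0.00961). Timp2 was the most abundant of the 3, and in each the KO libraries lay below the WT libraries. Ndrg1, a gene induced by low oxygen, had 0.398 and 0.857 CPM in KO and 5.27 and 5.36 CPM in WT (log2 fold change -3.33 ± 0.83 SE, adjusted p = 0.278, separate terms 0.0208). Higher in KO were Gpc5, a glypican, with 7.85 and 3.11 CPM in KO and 2.47 and 1.13 CPM in WT (adjusted p = 0.181, separate terms 0.0352), and the potassium channel gene Kcnq5, with 15.4 and 5.25 CPM in KO and 5.22 and 3.00 CPM in WT (adjusted p = 0.236, separate terms 0.0303).

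The gene lists that follow are described by counts and medians, beside a median log2 fold change of 0.0055 and 49% of genes below 0 over all tested genes. Apart from Yap1, Cd109 and Foxj1, no list member passed in the additive fit, so further passes within lists refer to separate number terms, against 1.44% lower and 0.345% higher over all genes. In bulk samples, fewer cells of a type and less RNA per cell cannot be told apart.

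**Figure D3:**
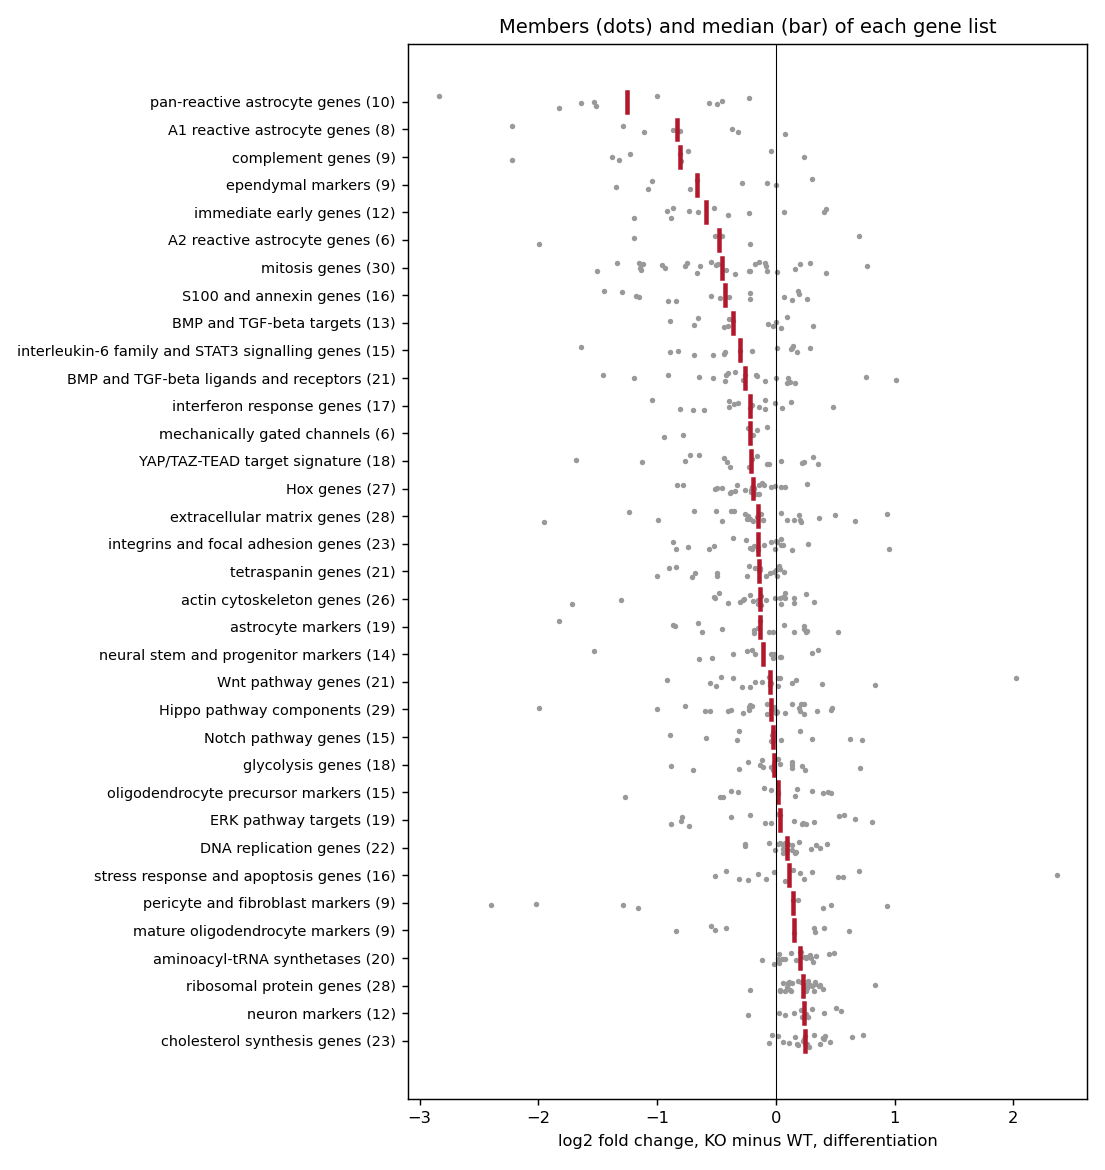
log2 fold change (KO minus WT, differentiation) of each tested member (dots) and the median (red bar) of each gene list with at least 6 tested members, with the number of members in brackets. Lists run from pan-reactive astrocyte genes, with a median of -1.26, to cholesterol synthesis genes, with a median of 0.25.

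Within the Hippo pathway, Yap1 fell and Wwtr1 was lower, while the kinases Lats1 (log2 fold change 0.24), Lats2 (-0.22), Stk3 (-0.22) and Stk4 (0.0042) did not pass in either fit. Of 29 tested components, 1 fell in the additive fit (Yap1), 12 were above 0 and the median was -0.04 (-0.085 to -0.021 when 1 library was left out). Wwtr1, which encodes TAZ, had 68.4 and 75.3 CPM in KO and 114 and 97.3 CPM in WT. The KO libraries were lower without overlap (log2 fold change -0.56 ± 0.12 SE, edgeR adjusted p = 0.181, separate terms 0.0384). Per length, Wwtr1 had 29.4 and 35.4 TPM in KO and 50.8 and 45.1 TPM in WT, while Yap1 had 13.3 and 18.5 TPM in KO and 56.6 and 50.6 TPM in WT. Wwtr1 was thus above Yap1 in KO cells and slightly below it in WT cells. Among the DNA-binding partners, Tead2 was the most abundant, with 55.5 and 62.6 TPM in KO and 71.9 and 70.9 TPM in WT, followed by Tead1, with 37.8 and 33.97 TPM in KO and 36.8 and 36.6 TPM in WT. Tead3 came next and Tead4 was under 1 TPM. The log2 fold changes were -0.02 for Tead1 (-0.11 to 0.068 over fits that each leave out 1 library), -0.28 for Tead2, -0.60 for Tead3 and -1.005 for Tead4, none of which passed in either fit.

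Targets of YAP1 and TAZ with TEAD were lower in part. Of 18 tested members of the signature, 13 were below 0 (median -0.21) and 4 passed as lower with separate terms, namely Arhgef17 above, Myof, Ajuba and Tgfb2. The median was -0.30 without KO number 7, -0.13 without KO number 8, -0.014 without WT number 7 and -0.39 without WT number 8. Tgfb2, a ligand of the TGF-beta family, had 113 and 140 CPM in KO and 167 and 229 CPM in WT (edgeR adjusted p = 0.251, separate terms 0.0140). Ajuba, a LIM protein that binds LATS kinases, had 13.5 and 28.1 CPM in KO and 26.7 and 41.9 CPM in WT (adjusted p = 0.138, separate terms 0.0256). Its groups overlapped because number 8 was higher than number 7 in both genotypes. Myof, a membrane repair protein, had 0.797 and 3.96 CPM in KO and 2.19 and 13.9 CPM in WT (separate terms 0.0265). Other widely used targets did not pass. Ccn1 had 8.02 and 9.80 CPM in KO and 9.48 and 10.8 CPM in WT, and Amotl2 had 117 and 139 CPM in KO and 108 and 108 CPM in WT. Their log2 fold changes of -0.20 and 0.23 did not pass (edgeR adjusted p = 0.798 and 0.626), and each changed sign in at least 1 fit that left out a library. Axl (-0.41), Ptpn14 (-0.44) and Lats2 (-0.22) were lower without passing.

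Promoter windows of 3 genes that passed as lower with separate terms are shown as examples, picked after the search because they hold the TEAD letters GGAATG 2 times (Ajuba, Tagln2) or beside an AP-1 motif (Gbp2). A window of Il1r1, also lower, holds them 2 times, and so does that of Sox5, which passed as higher with separate terms. The window of Stat3 holds them 2 times and 1 window of Tead3 holds them 3 times, and neither gene passed in either fit. Each runs from 250 bases before to 50 bases after the RefSeq start (GRCm38.p6), 5′ to 3′ on the gene's strand, with capitals for GGAATG or its reverse complement CATTCC and for TGACTCA or its reverse complement TGAGTCA, the AP-1 motif.
Ajuba, chr14:54577612-54577911, minus strand: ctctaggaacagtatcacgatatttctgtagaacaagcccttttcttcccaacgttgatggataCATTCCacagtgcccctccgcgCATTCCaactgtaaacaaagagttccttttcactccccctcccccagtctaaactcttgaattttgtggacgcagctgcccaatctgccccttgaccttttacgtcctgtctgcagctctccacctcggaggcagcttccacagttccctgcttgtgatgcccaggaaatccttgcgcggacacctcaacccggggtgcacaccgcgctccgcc
Tagln2, chr1:172499996-172500295, plus strand: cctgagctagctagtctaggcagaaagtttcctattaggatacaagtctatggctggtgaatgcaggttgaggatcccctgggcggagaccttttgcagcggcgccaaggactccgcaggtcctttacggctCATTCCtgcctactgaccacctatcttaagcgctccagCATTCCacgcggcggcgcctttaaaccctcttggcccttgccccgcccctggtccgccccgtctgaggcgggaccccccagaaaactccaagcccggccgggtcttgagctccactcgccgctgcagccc
Gbp2, chr3:142620413-142620712, plus strand: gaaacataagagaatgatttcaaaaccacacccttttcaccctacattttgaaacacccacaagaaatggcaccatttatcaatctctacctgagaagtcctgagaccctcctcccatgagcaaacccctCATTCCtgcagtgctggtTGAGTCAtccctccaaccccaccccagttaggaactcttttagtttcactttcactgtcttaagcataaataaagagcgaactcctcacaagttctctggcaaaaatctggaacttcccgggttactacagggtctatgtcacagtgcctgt
GGAATG on either strand was found in 14.7% of all 32851 windows and in the windows of 14.3% of 10440 tested genes with a window. It was in 25 of 145 genes called lower with separate terms that had a window (17.2%) and in 5 of 37 called higher (13.5%). The AP-1 letters were found for 4.2% of tested genes with a window, for 15 of the 145 lower genes (10.3%) and for 3 of the 37 higher genes (8.11%). A match is a description of letters in a short window and not a binding site, and most TEAD sites are known to lie in distant enhancers.

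Genes of the actin cytoskeleton and of mechanical sensing were below 0 in most members, of which few passed. Of 26 tested actin genes, 17 were below 0 (median -0.14) and 4 passed as lower with separate terms. Within number 7, 13 of the 26 were below 0 (median -0.061), and within number 8, 22 of the 26 (median -0.139). Tagln2, an actin-bundling protein of the calponin family, had 4.50 and 10.1 CPM in KO and 16.3 and 18.6 CPM in WT (edgeR adjusted p = 0.138, separate terms 0.0241). Vcl, the adhesion protein vinculin, had 139 and 157 CPM in KO and 213 and 207 CPM in WT (separate terms 0.0311), and Cnn3, a calponin, had 554 and 576 CPM in KO and 762.2 and 862 CPM in WT (separate terms 0.0282). The KO libraries lay below the WT libraries in all 3, and the fourth was Myl9, a myosin light chain at 0.341 and 3.05 CPM in KO and 1.63 and 9.39 CPM in WT. Of 6 mechanically gated channels, all were below 0 (median -0.22, and -0.33 and -0.34 without WT number 7 and WT number 8), and Piezo1 and Kcnk2 passed with separate terms. Piezo1, a cation channel opened by membrane tension, had 7.80 and 7.12 CPM in KO and 12.9 and 12.8 CPM in WT (adjusted p = 0.138, separate terms 0.0242). Kcnk2, the stretch-activated potassium channel TREK-1, had 9.39 and 39.6 CPM in KO and 24.2 and 61.4 CPM in WT, lower within each number although the groups overlapped (separate terms 0.0311).

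Genes that astrocytes induce after injury or inflammation were lower in most members. These lists were added after values were seen, so their direction is not independent evidence. Of the pan-reactive genes, which rise after both inflammatory and ischaemic injury, all 10 tested members were below 0 (median -1.26), and 3 passed as lower with separate terms (Osmr above, Cd44 and Vim). Gfap, the intermediate filament of astrocytes, had 449 and 1279 CPM in KO and 2918 and 2503 CPM in WT. The gap was far wider in number 7 than in number 8 (log2 differences -2.70 and -0.97), and Gfap passed in neither fit (edgeR adjusted p = 0.236, separate terms 0.179). Vim, a related filament, had 1165 and 1055 CPM in KO and 1553 and 1487 CPM in WT (separate terms 0.0490), and Cd44, the hyaluronan receptor, had 101 and 76.1 CPM in KO and 138 and 111 CPM in WT (separate terms 0.0396). Both were lower by a similar amount in either number.

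Inflammation-linked A1 genes and complement genes shared this direction. Of 8 tested A1 genes, 7 were below 0 (median -0.84), and C3 and Gbp2 passed as lower with separate terms. C3, the central complement protein, had 0.911 and 3.59 CPM in KO and 5.44 and 13.8 CPM in WT (log2 fold change -2.22 ± 0.34 SE, edgeR adjusted p = 0.138, separate terms 0.0114). Gbp2, an interferon-induced GTPase, had 10.1 and 8.83 CPM in KO and 18.85 and 21.8 CPM in WT (separate terms 0.0311). Of 9 complement genes, 8 were below 0 (median -0.81), and besides C3 only C1s1, a protease of the first component, passed with separate terms, with 5.24 and 6.75 CPM in KO and 15.7 and 12.4 CPM in WT (0.0341). C4b had 34.7 and 65.3 CPM in KO and 150 and 125 CPM in WT and passed in neither fit (separate terms 0.0896), and C1s1 and C4b have close copies that can share reads. Of 6 tested A2 genes, linked to ischaemia, 5 were below 0 (median -0.48), among them Cd109, which fell, and Tm4sf1, while B3gnt5, a glycosyltransferase, was above 0 with 16.2 and 11.99 CPM in KO and 9.43 and 7.83 CPM in WT (separate terms 0.0583). Over the 32 different genes of these 4 lists, which were added after values were seen, 26 were below 0 in both numbers. Over all tested genes, both numbers had the same sign, in either direction, in 59.0%.

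**Figure D4:**
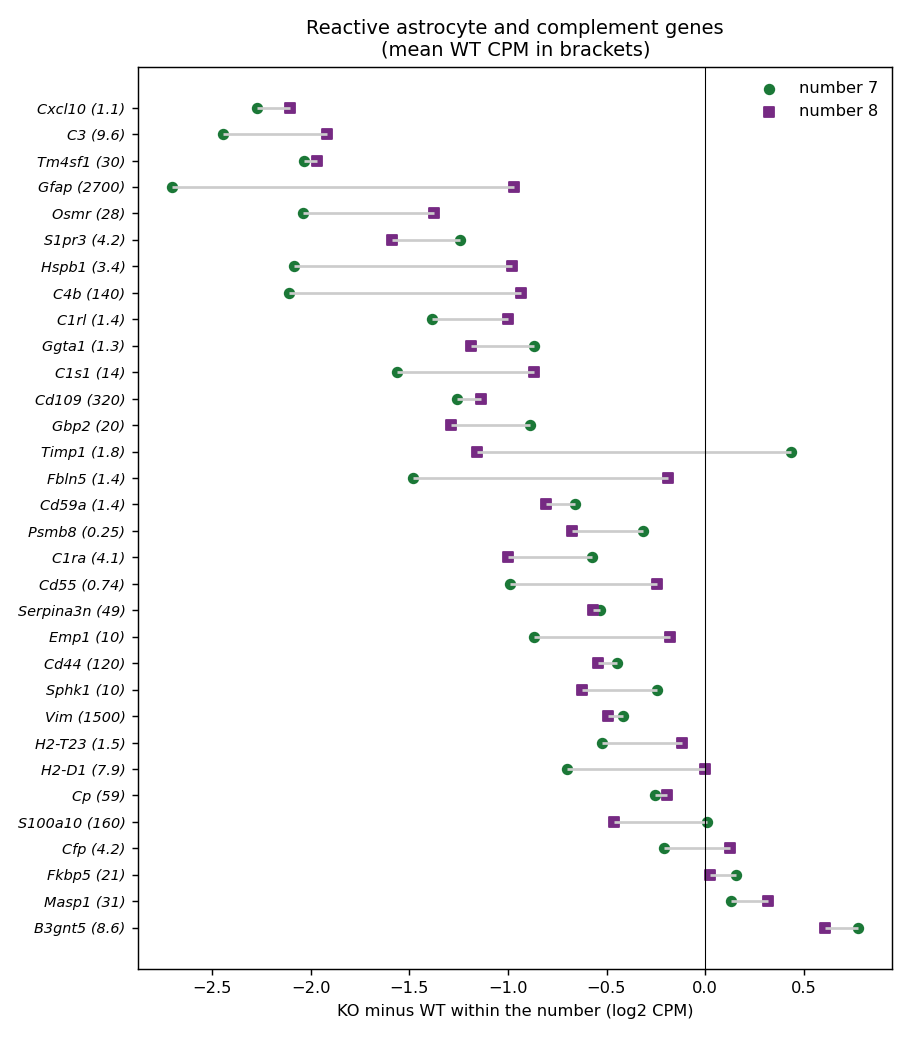
KO minus WT difference in log2 CPM within number 7 (circles) and within number 8 (squares) for the 32 tested reactive astrocyte and complement genes in differentiation, with the mean WT CPM in brackets. In 26 genes both points lie left of 0; Gfap shows one of the widest gaps between numbers (-2.70 and -0.97) and Tm4sf1 and Cd109 narrow ones.

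Cytokines of the interleukin-6 family are known to drive Gfap through STAT3, and their part in the level of Gfap here was not tested. In the list of this family and STAT3 signalling, 2 of 15 tested genes, Osmr and Cntf, passed as lower with separate terms. Cntf, a neurotrophic cytokine of this family, had 36.9 and 51.2 CPM in KO and 60.7 and 96.2 CPM in WT (edgeR adjusted p = 0.340, separate terms 0.0114). The shared receptor chain Il6st had 193 and 186 CPM in KO and 330.3 and 221 CPM in WT, Stat3 had 175 and 241 CPM in KO and 269 and 287 CPM in WT, and the feedback inhibitor Socs3 had 7.40 and 10.2 CPM in KO and 13.1 and 15.1 CPM in WT. None of these 3 overlapped between groups and none passed in either fit (separate terms 0.0792, 0.0988 and 0.0890). Over the list, 9 genes were below 0 and 6 above (median -0.31, and -0.065 without KO number 7). Of 17 interferon response genes, 14 were below 0 (median -0.22, and -0.39 and -0.36 without KO number 8 and WT number 7), with only Ifitm3 and Ifitm2 passing with separate terms.

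Of 19 tested general astrocyte markers, 12 were below 0 (median -0.13), and Vim and Clu passed as lower with separate terms. The median depended on single libraries, at -0.30 without KO number 7, -0.073 without KO number 8, 0.027 without WT number 7 and -0.30 without WT number 8. The summed level did not overlap between groups and was 18609 and 18322 CPM in KO and 21994 and 20516 CPM in WT. Most of that gap came from Gfap alone (mean 864 CPM in KO and 2711 CPM in WT), which passed in neither fit. Slc1a2, the main astrocyte glutamate transporter, had 1892 and 1362 CPM in KO and 1697 and 1058 CPM in WT (edgeR adjusted p = 0.686). Clu, the chaperone clusterin, had 117 and 305 CPM in KO and 205 and 562 CPM in WT, lower within each number (separate terms 0.00961). Aqp4, the water channel, had 222 and 1314 CPM in KO and 587 and 1712 CPM in WT and passed in neither fit (separate terms 0.0933). The difference between numbers exceeded that between genotypes for Aqp4.

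Of 9 tested ependymal markers, 7 were below 0 (median -0.66, and -0.42 without KO number 7). Foxj1, Rfx2 and Rfx3 were the members with more than a few CPM. Rfx2, which acts with Foxj1 on cilium genes, had 9.73 and 14.1 CPM in KO and 19.8 and 18.8 CPM in WT (edgeR adjusted p = 0.310, separate terms 0.0862), while Rfx3 of the same family had 158 and 77.7 CPM in KO and 106 and 81.4 CPM in WT, higher in number 7 and lower in number 8. Structural genes of motile cilia such as Dnah5, a dynein of the axoneme, had 6 counts over the 4 libraries, and Tmem212 and Armc3 had 0. The summed level of the list was 191 and 126 CPM in KO and 183 and 171 CPM in WT, mostly from Rfx3 and Foxj1.

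Markers of the other cell types were set beside these results, and their part in the results was not tested. The 12 tested neuron markers had a median of 0.24 (0.13 without KO number 7 and 0.42 without KO number 8), with 11 above 0 and none passing. Their summed level was 2093 and 2218 CPM in KO and 1685 and 1906 CPM in WT, mostly Map2 (1891 and 1807 CPM in KO, 1485 and 1513 CPM in WT). Oligodendrocyte precursor markers had a median of 0.02 over 15 genes (-0.074 to 0.26 when 1 library was left out) and a summed level of 5873 and 6360 CPM in KO and 5047 and 5218 CPM in WT, with no overlap. Most of that gap came from Ptprz1 (mean 2472 CPM in KO and 1792 CPM in WT). Of the 15 genes, 8 were above 0 and 7 below, with 10 below 0 in number 7 and 3 in number 8. The receptor gene Pdgfra, with the highest log2 fold change of the list (0.47), had 120 and 145 CPM in KO and 82.4 and 110 CPM in WT (edgeR adjusted p = 0.270, separate terms 0.0782). Mature oligodendrocyte markers had a median of 0.16 over 9 genes (-0.48 to 0.19 when 1 library was left out), with 5 above 0 and 4 below. Their summed levels were 446 and 533 CPM in KO and 591 and 577 CPM in WT. That gap came mainly from Cnp (mean 340 CPM in KO and 439 CPM in WT), which passed in neither fit. Mbp, the defining myelin gene, had 21 counts in all. Among microglia markers, Csf1r had 0 counts, and P2ry12 and Itgam had 1 count each over the 4 libraries. Endothelial markers summed to 0.797 and 1.45 CPM in KO and 1.23 and 1.66 CPM in WT, with Emcn and Tie1 at 0.

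Ligands, membrane scaffolds and calcium-binding proteins added single genes. Of 21 ligands, receptors and co-receptors of the BMP and TGF-beta family, 15 were below 0 (median -0.26). Cd109 fell, Tgfb2 was lower, and Bmp3 and Bmp7, a ligand that promotes astrocyte fate, passed as higher with separate terms. Bmp7 had 10.02 and 5.19 CPM in KO and 5.61 and 3.33 CPM in WT, overlapping but higher within each number (0.0448). Of 21 tetraspanins, 17 were below 0 (median -0.14, and -0.36 without KO number 8), and 4 passed as lower with separate terms. Cd63, the tetraspanin of late endosomes and exosomes, had 682 and 651 CPM in KO and 981 and 902 CPM in WT (0.0311), and Tspan15, a partner of the sheddase ADAM10, had 125 and 161 CPM in KO and 216 and 251 CPM in WT (0.0101). The others were Tspan4 and Tspan2. Of 16 S100, annexin and annexin-binding genes, 11 were below 0 (median -0.43, and -0.10 without KO number 8), and Ahnak, Anxa2 and Anxa5 passed. The list was uneven between numbers, with 8 of 16 below 0 in number 7 (median -0.016) and 15 of 16 in number 8 (median -0.75). Ahnak, a giant scaffold that binds annexin A2, had 16.7 and 16.1 CPM in KO and 33.3 and 48.8 CPM in WT (edgeR adjusted p = 0.138, separate terms 0.0154). Its partner Anxa2 had 60.9 and 39.3 CPM in KO and 91.1 and 93.6 CPM in WT (adjusted p = 0.138, separate terms 0.0238).

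Cholesterol synthesis and translation genes were mostly higher, by small amounts, and glycolysis genes were not. Of 18 glycolysis genes, 8 were above 0 and 10 below (median -0.018), with 7 below 0 in number 7 and 15 in number 8, and none passed. That median ran from -0.21 without KO number 7 to 0.16 without KO number 8. Of 23 genes of cholesterol synthesis and uptake, 21 were above 0 (median 0.25). Without overlap between groups, 13 were higher, against 15.9% of all tested genes. The median was 0.39 without KO number 7, 0.10 without KO number 8, 0.040 without WT number 7 and 0.52 without WT number 8. Lss, which forms lanosterol, had 201 and 244 CPM in KO and 117 and 149 CPM in WT (log2 fold change 0.74 ± 0.33 SE, edgeR adjusted p = 0.494, separate terms 0.00899). Fdps, the farnesyl diphosphate synthase, had 234 and 245 CPM in KO and 132 and 172 CPM in WT (adjusted p = 0.469, separate terms 0.0208). These 2 were the members that passed with separate terms. When 1 library was left out, their log2 fold changes in the additive fit ran from 0.34 to 1.18 for Lss and from 0.29 to 1.08 for Fdps, lowest without KO number 8 and without WT number 7 in turn and both highest without WT number 8. Of 28 listed ribosomal protein genes, 27 were above 0 (median 0.23, and 0.11 without WT number 7). Higher without overlap were 19 of them, against 15.9% of all tested genes, and none of the 28 passed. Rpl29 and Rpl31 above, which passed with separate terms, were not among the 28. Of 20 aminoacyl-tRNA synthetases, 18 were above 0 (median 0.21, and 0.12 without WT number 7) and only Yars passed with separate terms, at 110 and 97.9 CPM in KO and 72.0 and 76.2 CPM in WT. The shift of all 3 lists was a fraction of that of single genes above, and wider in number 7 than in number 8 (medians of 0.35 and 0.21 for cholesterol synthesis, 0.25 and 0.12 for ribosomal proteins, 0.27 and 0.07 for the synthetases).

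The same loss of YAP1 was then set beside proliferation, where KO and WT libraries share the fit but not the samples. In proliferation, Yap1 had 27.0 and 32.7 CPM in KO and 170.5 and 150.4 CPM in WT, and edgeR with the additive block called 1 gene lower (Yap1) and 1 higher (Bmp3), each 0.00767% of tested genes. With separate number terms it called 43 higher (0.33%) and 24 lower (0.184%) there. The difference between the KO effects of both conditions passed for 0 genes (0%) in edgeR with the additive block and with no block, and in limma-voom, while 1143 genes (8.76%) had an unadjusted p under 0.05. With separate number terms, edgeR called 5 genes with a more positive KO effect in differentiation (0.0383%) and 33 with a more negative one (0.253%), and DESeq2 with the additive block called 6 and 37. Foxj1 had log2 fold changes of -1.35 in differentiation and -1.28 in proliferation (difference -0.07 ± 0.20 SE, adjusted p = 0.930). Hmcn1 was at 1.30 in differentiation and 1.08 in proliferation (adjusted p of the difference 0.792).

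Other genes had a KO effect in differentiation that was near 0 or of the other sign in proliferation. In edgeR, these differences passed only with separate number terms. Cd109 had 355 and 467 CPM in KO and 410.1 and 462 CPM in WT in proliferation, thus a log2 fold change of -1.20 in differentiation and of -0.10 in proliferation (difference -1.10 ± 0.15 SE, edgeR adjusted p = 0.208, separate terms 0.0267). Tm4sf1 had -0.21 in proliferation and -1.999 in differentiation (adjusted p of the difference 0.481, separate terms 0.0200). Parp3 had 13 and 10.6 CPM in KO and 9.16 and 7.60 CPM in WT in proliferation, thus log2 fold changes of -1.01 in differentiation and 0.49 in proliferation (adjusted p of the difference 0.197, separate terms 0.0218). Txnip, an inhibitor of thioredoxin and glucose uptake, had log2 fold changes of 0.79 in proliferation and -0.71 in differentiation (adjusted p of the difference 0.197, separate terms 0.0249). It had 60.3 and 39.7 CPM in KO and 98.4 and 64.8 CPM in WT in differentiation. Tgfb2, Tspan4, Aebp1, Timp2, Gsn, Stom and Ndrg1 also differed in this direction with separate terms, and Lss, Fdps and Rpl29 in the other. Serpina3n, a secreted protease inhibitor, had log2 fold changes of -0.56 in differentiation and 2.01 in proliferation (separate terms 0.00319), but the first ran from -1.23 to 0.17 when 1 library was left out. Agt, angiotensinogen, also differed with separate terms, being higher in KO in proliferation.

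**Figure D5:**
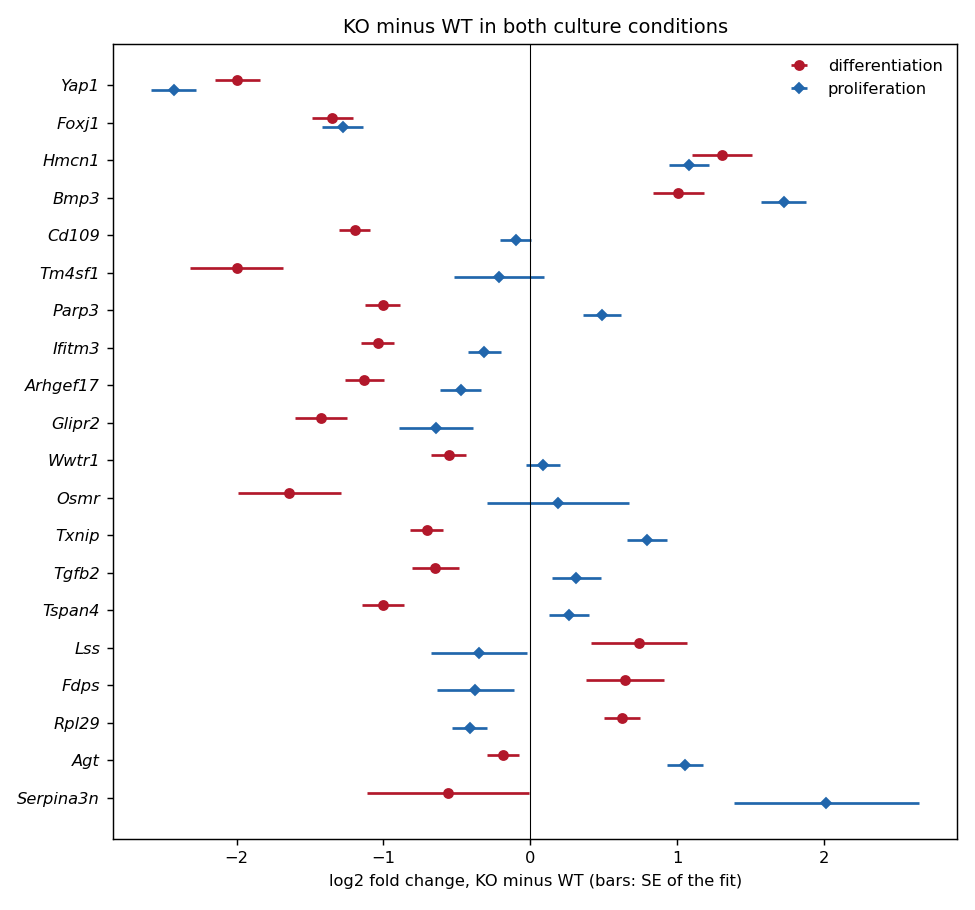
log2 fold change (KO minus WT) of 20 genes in differentiation (red circles) and in proliferation (blue diamonds), with bars of 1 SE from the edgeR fit with the additive block. Yap1 and Foxj1 lie left of 0 and Hmcn1 and Bmp3 right of 0 in both conditions, while Cd109 is at -1.20 in differentiation and -0.10 in proliferation.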

How the data were processed

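RNA was sequenced as stranded poly(A) libraries on DNBSEQ, per the labels' protocols. The deposited table holds the authors' expected counts (estimated counts per gene, not normalised) and TPM, per the file headers. Aligner, counting tool and use of strand in counting: not given in the sources used here. The submitters' processing notes name GRCm39, but positions in the table match GRCm38 and are printed as such. TPM were used only to compare levels between genes. 12 columns of 4 libraries match no label and were not used.

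Expected counts were rounded, and 13046 of 16927 genes (77.1%) passed filterByExpr. All 8 libraries were fitted in edgeR 4.0.16 (R 4.3.3; TMM, robust quasi-likelihood F-test, two-sided) with group and number as terms (3 residual degrees of freedom), Benjamini-Hochberg over all genes, threshold 0.05. The number is a block because the comparison was set so, and the labels do not say what it marks. Deviations from the group means of same-numbered libraries had a correlation across genes of 0.703 between KO and WT in differentiation and of 0.576 between conditions in KO. The biological coefficient of variation was 11.8% with this block, 8.62% with a number term per condition and 24.1% without. Alternatives used DESeq2 1.42.0 and limma-voom 3.58.1. Differences within a number use log2 CPM with a prior count of 2. The additive fit was also run on counts simulated from that same fit. Such counts cannot show whether the number term is equal in both culture conditions.

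Genes were named if they passed, or were among the 10 of smallest p per direction with at least 5 CPM in the higher group, the same sign in both numbers and no overlap, or up to 4 per list. Other named genes were chosen after their values were seen, as were 7 lists added to the 31. The comparison, members and lists were chosen with earlier results of these data known.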

Additional observations from a re-analysis of the deposited data

How the results depend on the processing

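The count of lower genes was 3 with the additive block, 3 with the size factors of DESeq2, 6 with limma-voom, 7 without the filter on low counts, 124 with DESeq2, 188 with the replicate block within each culture condition, 428 with the 4 differentiation libraries alone and 0 with no replicate block. The count of higher genes was 0 except for 45 with the replicate block within each condition, 159 with the 4 libraries alone and 22 with DESeq2. Without 1 replicate, lower genes numbered 0 to 2 and higher genes 0, and of the 3 calls none was kept. The difference between KO effects gave 0 genes except for 5 more positive and 33 more negative with the replicate block within each condition, and 6 and 37 with DESeq2. Of the named genes, 3 lost their call with no replicate block and none changed sign under a setting that kept all 8 libraries. Signs changed when 1 library was left out for Tead1 (-0.11 to 0.068), Rfx3 (-0.25 to 0.74), Serpina3n (-1.23 to 0.17), Ccn1 (-0.44 to 0.057) and Amotl2 (-0.0013 to 0.50). Of 37 list medians, 16 to 18 moved and 4 to 6 changed sign in each fit without 1 library, among them those of astrocyte, oligodendrocyte precursor and mature oligodendrocyte markers and of glycolysis genes. With all 4 libraries kept, the sign of 1 list changed with the 4 libraries alone (oligodendrocyte precursors), and of 1 with DESeq2 and limma-voom (mature oligodendrocytes). The fit of 4 libraries has 1 residual degree of freedom, and in fits without 1 library the lone sample of a group is assumed to vary like the other groups. The cause of these changes was not tested.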

Other observations

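Hox genes, which carry the positional identity of the cord, were lower in number 7 but not in number 8. Of 27 tested, 25 were below 0 in number 7 (median -0.41) and 13 in number 8 (median 0.01), and none passed in either fit. Mitosis genes, at low levels in differentiation, had a median of -0.45 over 30 genes (-0.30 without KO number 7) with 24 below 0 and summed levels of 38.5 and 44.3 CPM in KO and 48.8 and 52.9 CPM in WT, while the 22 DNA replication genes had a median of 0.09. Of 12 immediate early genes, 9 were below 0 (median -0.59, and -0.26, -0.16 and -1.09 without KO number 8, WT number 7 and WT number 8), and Fos passed as lower with the separate number terms, at 48.4 and 48.6 CPM in KO and 95.4 and 81.0 CPM in WT (edgeR adjusted p = 0.546, separate terms 0.0311).

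Of 23 integrin and focal adhesion genes, 21 Wnt genes and 16 stress response and apoptosis genes, 1 each passed as lower with separate terms. Among the stress genes, 1 also passed as higher. None of these passed in the additive fit. Itga7, a laminin receptor, had 13.5 and 50.3 CPM in KO and 27.7 and 76.9 CPM in WT (edgeR adjusted p = 0.573, separate terms 0.0366). Wnt7b had 63.0 and 150 CPM in KO and 103 and 205 CPM in WT (separate terms 0.0336). Both Itga7 and Wnt7b overlapped between groups and were lower within each number. Cdkn1a, the cell cycle inhibitor p21, had 399 and 255 CPM in KO and 516 and 416 CPM in WT (separate terms 0.0389). When 1 library was left out, the log2 fold change ran from -1.48 to -0.16 for Itga7 and from -1.04 to -0.18 for Wnt7b. For Cdkn1a it ran from -0.98 to -0.14.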
